A study of Homo sapiens with 72 samples.

Results

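The genes described here encode 5 proteins that bind AU-rich elements in messenger RNA: ZFP36 (ENSG00000128016), ZFP36L1 (ENSG00000185650), ZFP36L2 (ENSG00000152518), ELAVL1 (ENSG00000066044) and KHSRP (ENSG00000088247). They were picked by gene symbol from the 61541 Ensembl gene IDs in each of 11 deposited tables of differential expression centred on G3BP1, and all 5 were found in every table. AU-rich elements are stretches of adenosine and uridine near the 3′ end of short-lived transcripts, among them those of early response genes and cytokines. ZFP36, also called tristetraprolin, and its paralogs ZFP36L1 and ZFP36L2 are zinc finger proteins that bind these elements and recruit the CCR4-NOT deadenylase, which shortens the poly-A tail and leads to decay. KHSRP, a KH domain protein also called KSRP, likewise promotes decay, whereas ELAVL1, also called HuR, stabilises many of the transcripts it binds. G3BP1 is a core protein of stress granules, the assemblies of untranslated mRNA and protein that form in stressed cells, and it joins other proteins through its NTF2 domain.

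The study has 72 human libraries, of which 24, in 11 groups, are used here. RNA immunoprecipitation (RIP) compared 3 immunoprecipitated libraries with 3 input libraries; these came from FlpIn 293 Trex, an embryonic kidney line, whose stable FLAG-G3BP1 was induced with 1 ug/mL tetracycline for 24 h. A first experiment in U2OS osteosarcoma cells compared wild-type cells, G3BP1/2 knockout cells and knockout cells given a G3BP1 transgene by Lipofectamine for 24 h, with 2 libraries each. In a second U2OS experiment all groups carried the G3BP1/2 knockout: untransfected cells, cells transfected for 24 h with wild-type G3BP1 (WT rescue) and cells that received a G3BP1 without the NTF2 domain (NTF2-deletion rescue), each without and with 200 uM sodium arsenite, which induces oxidative stress, for 2 h, with 2 libraries each. The knockout groups had not been transfected, so that an effect of a transgene and an effect of the transfection cannot be told apart. The labels do not say whether libraries of a group came from separate cultures or whether the knockout is 1 clone, and the p-values measure only the spread between these libraries, which may be technical.

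G3BP1 mRNA fell by 0.56 on the log2 scale from wild-type to knockout cells in the authors' deposited table (DESeq2, adjusted p = 1.01e-29), and was 7.31 and 7.75 higher in the WT and NTF2-deletion rescues than in their knockout. An mRNA level does not show whether the protein was lost. In the first experiment the knockout stood at -0.69 against the G3BP1 rescue in the authors' deposited table, so the transgene gave far less mRNA there than in the second. Of 8 osteoblast lineage markers, 5 reached a base mean of 10 normalised reads in the first U2OS experiment and 4 in the second, with RUNX2, ALPL and COL1A1 present, IBSP listed at 0 and SP7 at 1.04 or less. These lists did not separate the lines: in the RIP libraries 4 of 8 osteoblast and 3 of 5 kidney line markers reached that level, and in U2OS cells the kidney list did for 5 and 3 of 5 in the first and second experiment. Depth, as normalised reads assigned to genes, ran from an average of 11.99 to 46.95 M a library by table. Whole reads per library were worked out from the base means for all 5 genes in both U2OS experiments, and for ZFP36 in the RIP libraries. A level is given in normalised reads, in U2OS cells on a scale where the knockout libraries of that experiment have a geometric mean size factor of 1. In these bulk libraries, less RNA per cell and fewer cells with the RNA cannot be told apart.

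The bases before the start sites of ZFP36 and ZFP36L1 are shown because, within 1 family, ZFP36 was called for arsenite in every background and ZFP36L1 in none, as given further on. RefSeq (GRCh38.p14) gave a sequence for 3 of the 5 genes, with 250 bases before each start, 5′ to 3′ on the gene's strand. ZFP36 lies on the plus strand, with chr19:39406597-39406846 before its start. ZFP36L1 lies on the minus strand and has 2 starts, with chr14:68796244-68796493 before the upstream one and chr14:68793417-68793666 before the downstream one. Capitals mark matches, on either strand, to GGGCGG (a GC box), TGACGTCA (a cyclic AMP response element), TGANTCA (an AP-1 site), GAANNTTC (the core of a heat shock element) or TATAAA.
ZFP36: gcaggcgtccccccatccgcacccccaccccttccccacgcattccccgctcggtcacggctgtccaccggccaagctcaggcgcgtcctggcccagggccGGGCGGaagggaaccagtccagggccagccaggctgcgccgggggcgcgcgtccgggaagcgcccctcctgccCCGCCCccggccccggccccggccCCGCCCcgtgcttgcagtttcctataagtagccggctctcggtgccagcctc
ZFP36L1 upstream start: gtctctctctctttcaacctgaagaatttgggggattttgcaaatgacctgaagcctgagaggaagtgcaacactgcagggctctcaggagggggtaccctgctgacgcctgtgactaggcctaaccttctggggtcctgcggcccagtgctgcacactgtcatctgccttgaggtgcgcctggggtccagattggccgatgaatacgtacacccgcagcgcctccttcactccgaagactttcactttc
ZFP36L1 downstream start: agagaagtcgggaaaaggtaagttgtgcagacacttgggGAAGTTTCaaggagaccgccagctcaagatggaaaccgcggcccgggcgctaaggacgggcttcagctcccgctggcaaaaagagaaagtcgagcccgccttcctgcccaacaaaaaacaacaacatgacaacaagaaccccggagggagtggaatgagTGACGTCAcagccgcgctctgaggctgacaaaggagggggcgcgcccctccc
The ZFP36 sequence held 3 matches to the GC box, which 42.6% of 35116 such sequences of all genes held, and 0 to the other 4 motifs. The ZFP36L1 downstream sequence held 1 cyclic AMP response element, from base -52 to -45 before the start, which 1.65% of all such sequences held, and 1 heat shock element core, which 5.78% held. Its upstream sequence held 0 matches to the 5 motifs. The KHSRP sequence (chr19:6424812-6425061, minus strand) held 2 GC boxes and 0 of the others. These matches describe letters in these windows and show no binding, and which start was used in these cells was not measured.

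The response to arsenite separated ZFP36 from the other 4 genes. In knockout cells ZFP36 stood at 69.6 and 56.4 normalised reads without arsenite and at 710.8 and 715.2 with it, from 74 and 53 reads against 786 and 778. The groups did not overlap, and the group means differed 11.3-fold. In the authors' deposited table the log2 fold change was 3.20 (SE 0.17, DESeq2 adjusted p = 2.74e-74, n = 2 libraries per group). In WT rescue cells ZFP36 rose from 80.9 and 100.9 to 265.0 and 262.7, which is 2.79-fold, with a deposited log2 fold change of 1.22 (SE 0.14, adjusted p = 1.27e-16, from the authors' deposited table). NTF2-deletion rescue cells went from 113.2 and 79.3 to 215.1 and 227.1, or 2.27-fold, and the authors' deposited table gave 0.69 (SE 0.14, adjusted p = 2.13e-05). The arsenite-treated libraries thus lay above the untreated ones in each of the 3 backgrounds, and those of the knockout lay above those of both rescues.

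**Figure D1:**
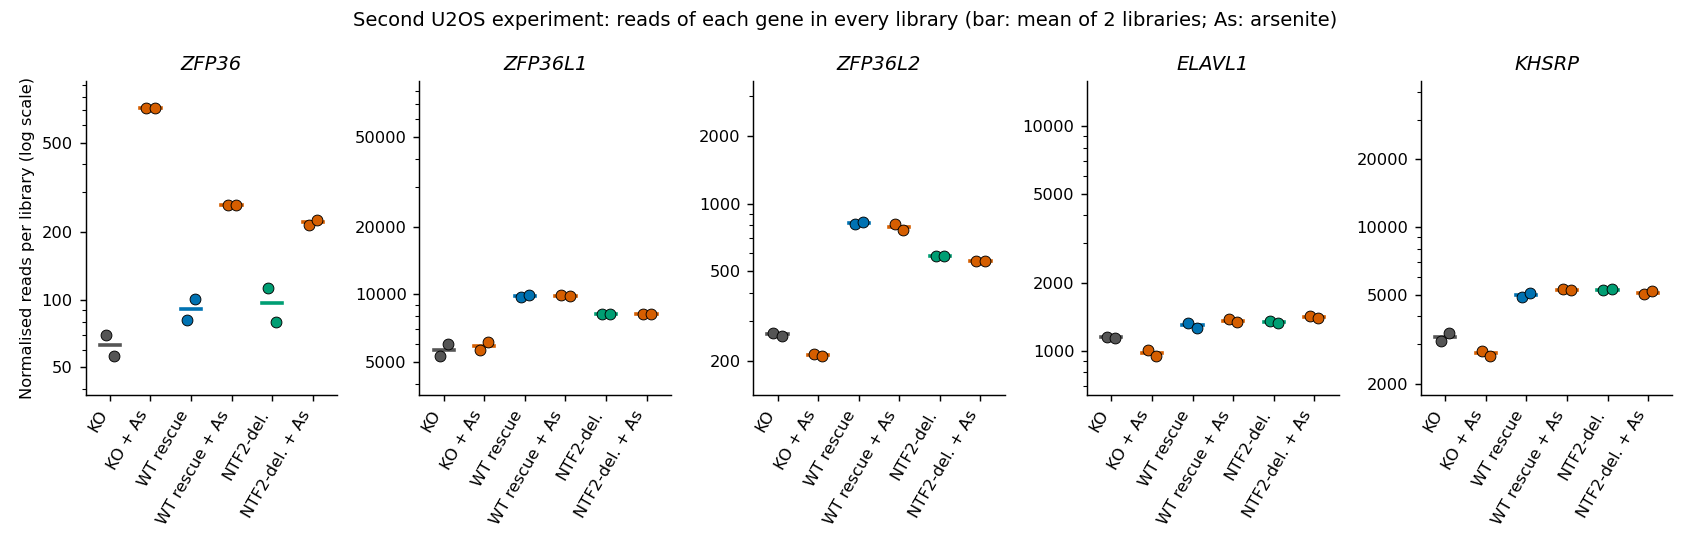
Normalised reads of the 5 genes in each library of the second U2OS experiment, on log axes that each span the same ratio; bars are means of 2 libraries and orange points had arsenite. ZFP36 was at 710.8 and 715.2 in knockout cells with arsenite and at 227.1 or below in NTF2-deletion rescue cells, whereas ZFP36L2 differed mainly between knockout cells and rescues.

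The authors' fold changes were shrunken ones. From group means without shrinkage, the log2 response of ZFP36 was 3.50 in knockout cells, 1.48 in WT rescue and 1.19 in NTF2-deletion rescue cells, against 3.20, 1.22 and 0.69 in the authors' deposited tables. A test of the difference between deposited responses gave -1.99 (SE 0.22, adjusted p = 9.45e-17) for WT rescue minus knockout and -2.52 (SE 0.22, adjusted p = 1.14e-27) for NTF2-deletion rescue minus knockout. This test divides the difference of 2 deposited fold changes by their combined standard error and adjusts over all genes whose base mean reached 10 in both tables. Without shrinkage the differences were -2.02 and -2.31. Of all genes tested, 4.51% differed in the first of these tests and 7.12% in the second, and ZFP36 was the only 1 of the 5 that did. Between the rescues the deposited responses of ZFP36 differed by 0.53 (95% interval 0.15 to 0.91, adjusted p = 0.549), and by 0.29 without shrinkage. None of the 5 genes passed this test, 1 of them had an unadjusted p under 0.05, and 0.328% of all genes passed.

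With arsenite present, ZFP36 was 2.70-fold lower in WT rescue and 3.22-fold lower in NTF2-deletion rescue cells than in knockout cells, by group means. The difference of the deposited fold changes over the same untreated knockout libraries was -1.20 (SE 0.29, adjusted p = 0.000112) and -1.47 (SE 0.30, adjusted p = 7.53e-06). The other 4 genes stood on the opposite side in both comparisons, higher in the rescues, with differences from 0.47 to 1.85. All 5 genes passed both tests, in which 45.4% and 43.4% of all genes passed. Of all genes, 26.1% and 24.3% were called higher in the rescues and 19.3% and 19.2% lower. Without arsenite ZFP36 was 1.44-fold higher in WT rescue and 1.53-fold higher in NTF2-deletion rescue than in knockout cells by group means, and the authors' deposited tables called neither (adjusted p = 0.239 and 0.160). Without 1 of the NTF2-deletion rescue libraries the log2 ratio in that rescue was 0.33 or 0.85, against 0.61 with both. The order of ZFP36 levels in the second experiment was knockout, WT rescue, NTF2-deletion rescue, then the arsenite-treated NTF2-deletion rescue, WT rescue and knockout. The libraries of the untreated WT and NTF2-deletion rescues overlapped, and no other neighbours in this order did.

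ZFP36L1, ZFP36L2 and ELAVL1 did not pass the test for arsenite in any background, and KHSRP passed only in knockout cells. In untreated and arsenite-treated knockout cells ZFP36L1 was at 5333 and 6033 against 5657 and 6163 normalised reads, with overlapping libraries. ZFP36L2 was at 267.1 and 258.4 without and 213.4 and 210.5 with arsenite, without overlap, and did not pass (adjusted p = 0.301, from the authors' deposited table). ELAVL1 was at 1156 and 1141 without and 1010 and 949.7 with arsenite, and the deposited log2 change of -0.22 did not pass (adjusted p = 0.0986, from the authors' deposited table). KHSRP fell by 0.24 on the log2 scale (SE 0.07, adjusted p = 0.00891, the authors' deposited table), from 3105 and 3364 to 2803 and 2673 normalised reads. In the rescues the deposited log2 changes of these 4 genes lay between -0.11 and 0.06. Of the 5 genes, 2 were called in knockout cells and 1 in each rescue, where 19.4%, 20.4% and 8.57% of all genes tested were called in the authors' deposited tables. The KHSRP response differed between WT rescue and knockout by 0.25 (95% interval 0.09 to 0.41), with an adjusted p of 0.0520, and of 0.0370 when the test kept to genes whose base mean reached 100.

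**Figure D2:**
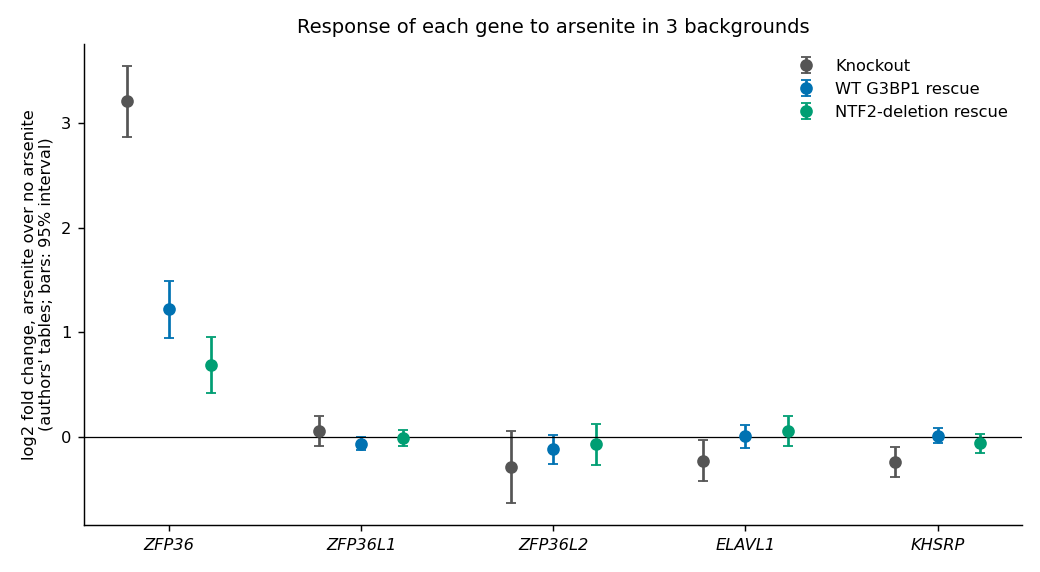
Deposited log2 fold change of arsenite over no arsenite for the 5 genes in knockout, WT rescue and NTF2-deletion rescue cells, with 95% intervals (2 libraries per group). ZFP36 stands at 3.20, 1.22 and 0.69, and the other genes lie between -0.28 and 0.06.

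ZFP36L2, a paralog known from blood cell development, was lowest in knockout cells in both U2OS experiments. Wild-type cells of the first experiment had 2207 and 2078 normalised reads, knockout cells 1169 and 1195, and knockout cells with the G3BP1 transgene 2019 and 2025. The knockout libraries lay below all others, with a deposited log2 fold change of -0.85 (SE 0.09, adjusted p = 5.7e-21) against wild type and -0.76 (SE 0.08, adjusted p = 3.29e-19) against the rescue, both from the authors' deposited tables. Wild-type and rescued cells differed by 0.07 (95% interval -0.08 to 0.22, adjusted p = 0.544, the authors' deposited table). In the second experiment the knockout had 267.1 and 258.4 normalised reads, WT rescue 815.3 and 826.8 and NTF2-deletion rescue 583.9 and 582.2. The rise over knockout was 3.12-fold and 2.22-fold by group means, with deposited log2 fold changes of 1.62 (SE 0.14, adjusted p = 8.12e-32) and 1.13 (SE 0.15, adjusted p = 1.84e-13), both from the authors' deposited tables.

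ZFP36L2 libraries of WT rescue lay above those of NTF2-deletion rescue both without arsenite, 1.41-fold, and with arsenite (812.4 and 761.9 against 558.4 and 556.5), again 1.41-fold. ZFP36L1 showed the same order, 9755 and 9984 against 8166 and 8158 without arsenite, 1.21-fold. With arsenite it had 9904 and 9810 against 8215 and 8173, 1.20-fold. Standing apart was not particular to these genes. With arsenite the rescues were also apart for ZFP36 (1.19-fold), KHSRP (1.03-fold) and ELAVL1 (0.96-fold), and without it for KHSRP (0.95-fold). With 2 libraries per group and closeness partly imposed by the search for reads, such separation is weak evidence. Its share over all genes was not worked out. The test of the difference between the rescues, without arsenite, gave 0.49 for ZFP36L2 (95% interval 0.10 to 0.88) and 0.27 for ZFP36L1 (95% interval 0.11 to 0.44), and neither passed after adjustment (both 1.000). None of the 5 genes passed, 2 had an unadjusted p under 0.05, and 0.0185% of all genes passed. Both rescues were set against the same knockout libraries, so that this test counts the knockout error in both. With that shared error taken out of the standard error, a setting chosen after seeing the data, ZFP36L1 passed (adjusted p = 0.0171), ZFP36L2 did not (adjusted p = 0.181), and 0.111% of all genes did.

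ZFP36L1 behaved differently from ZFP36L2 in the first experiment. Wild-type cells had 23535 and 23411 normalised reads, knockout cells 27290 and 28033 and rescued cells 26651 and 25312. Knockout was above wild type by 0.24 on the log2 scale (SE 0.04, adjusted p = 3.43e-07) and wild type stood at -0.16 against rescue (adjusted p = 0.000885), whereas knockout against rescue, at 0.09, did not pass (adjusted p = 0.0776), all in the authors' deposited tables. Centred on that table's median, the last comparison passed (0.14, adjusted p = 0.00272). In the second experiment ZFP36L1 rose over the knockout by 0.80 in WT rescue (SE 0.06, adjusted p = 1.62e-41) and by 0.52 in NTF2-deletion rescue (SE 0.06, adjusted p = 1.32e-15), in the authors' deposited tables. Rescue libraries thus lay below the knockout in the first experiment and above it in the second, and this difference was not tested.

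**Figure D3:**
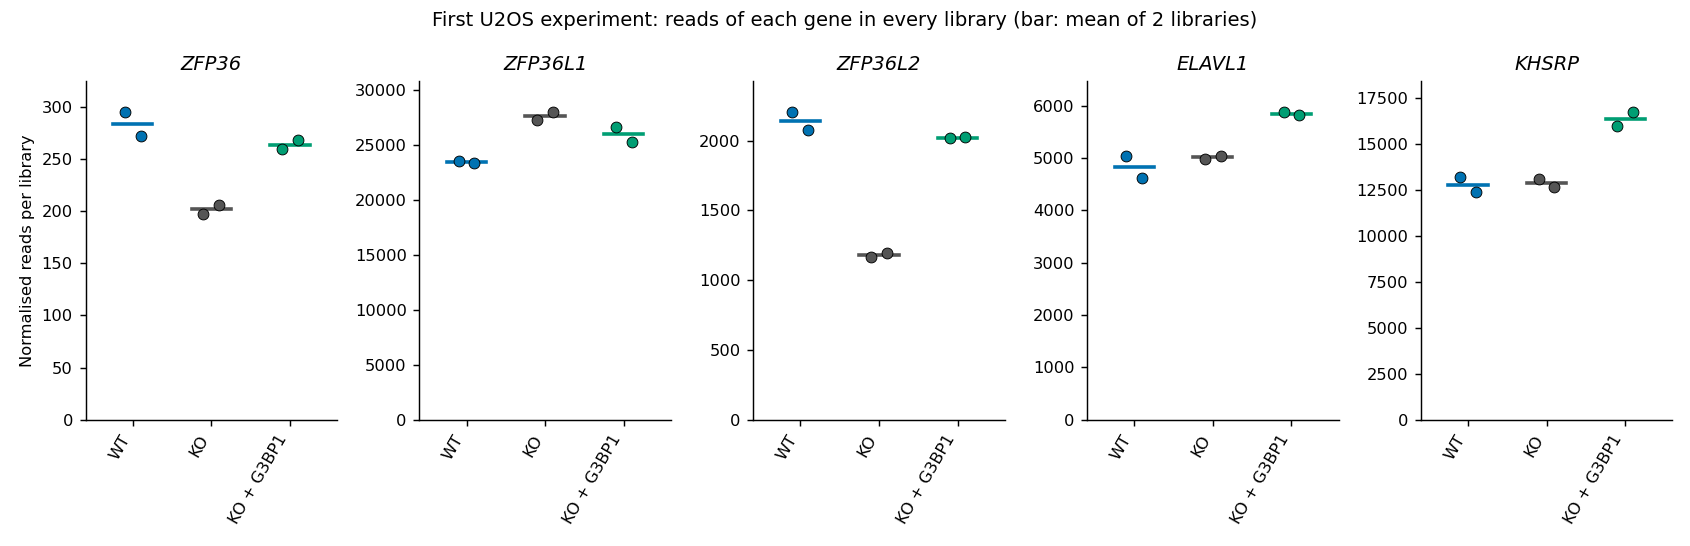
Normalised reads of the 5 genes in each library of the first U2OS experiment, on linear axes from 0; bars are means of 2 libraries. ZFP36 and ZFP36L2 are lowest in knockout cells (1169 and 1195 for ZFP36L2), ZFP36L1 is lowest in wild-type cells, and ELAVL1 and KHSRP are highest in rescued cells.

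ZFP36 itself fell with the knockout, at 197.4 and 205.8 normalised reads against 295.1 and 272.0 in wild-type cells, with 259.1 and 267.9 in rescued cells. The authors' deposited table gave -0.47 against wild type (SE 0.20, adjusted p = 0.0464), and that call was lost when p-values were adjusted over all genes without the filter on low ones (adjusted p = 0.0662). Against the rescue, -0.35 did not pass in the authors' deposited table (adjusted p = 0.128), although all 4 libraries stood apart. Of the 5 genes, 3 were called in each table of the first experiment, where 37.8% (knockout against wild type), 37.6% (knockout against rescue) and 35.6% (wild type against rescue) of all genes were called. These 3 tables share libraries.

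ELAVL1 and KHSRP did not differ detectably between knockout and wild-type cells, and both were highest after transfection with G3BP1. ELAVL1 had 5040 and 4622 normalised reads in wild-type, 4987 and 5044 in knockout and 5882 and 5813 in rescued cells. Knockout against wild type was 0.05 (95% interval -0.07 to 0.18) for ELAVL1 and 0.01 (95% interval -0.09 to 0.11) for KHSRP in the authors' deposited table. KHSRP stood at 13186 and 12405, 13092 and 12651, and 15993 and 16754 in the same order. Against rescued cells, wild-type cells stood at -0.29 for ELAVL1 (adjusted p = 7.33e-06) and -0.37 for KHSRP (adjusted p = 1.64e-13), from the authors' deposited table. Knockout cells stood at -0.22 (adjusted p = 0.000126) and -0.35 (adjusted p = 1.51e-13) against rescued cells, likewise from the authors' deposited table. In the second experiment KHSRP rose from 3105 and 3364 in knockout cells to 4892 and 5103 in WT rescue and 5216 and 5312 in NTF2-deletion rescue, with deposited log2 fold changes of 0.63 and 0.70 (adjusted p = 2.76e-23 and 4.64e-27, the authors' deposited tables). The libraries of the rescued groups all lay above those of the knockout.

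Without arsenite in the second experiment, ELAVL1 had the smallest fold of the 5 between knockout and rescues by group means, at 1.13 and 1.16. Its normalised reads were 1156 and 1141 in knockout, 1328 and 1265 in WT rescue and 1351 and 1322 in NTF2-deletion rescue cells. In the authors' deposited tables WT rescue, at 0.17, did not pass (adjusted p = 0.116), and NTF2-deletion rescue, at 0.22, did (adjusted p = 0.0408). Over all genes whose base mean reached 100, these 2 tables had a median log2 fold change of 0.18 and 0.17, and 0.22 and 0.19 in the tables of arsenite-treated rescues against untreated knockout. Relative to that median neither passed for ELAVL1 (adjusted p = 0.990 and 0.696), while ZFP36L2 remained at 1.45 and 0.97, ZFP36L1 at 0.62 and 0.36 and KHSRP at 0.45 and 0.54. Of the 5 genes 3 were called in WT rescue and 4 in NTF2-deletion rescue, all higher, where the authors' deposited tables called 42.1% and 41.5% of all genes, and 23.0% and 22.8% as higher.

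Against untreated knockout cells, all 5 genes were higher in arsenite-treated WT rescue and NTF2-deletion rescue cells in the authors' deposited tables, which called 44.9% and 43.0% of all genes, and 25.1% and 23.3% as higher. ZFP36 stood at 2.00 and 1.74, ZFP36L2 at 1.57 and 1.07, ZFP36L1 at 0.79 and 0.53, KHSRP at 0.70 and 0.66 and ELAVL1 at 0.24 and 0.30 (adjusted p = 0.00905 and 0.00214 for ELAVL1) in the authors' deposited tables. These share the knockout libraries with the tables of untreated rescues. Centred on the median, the calls of ELAVL1 were lost (0.02 and 0.10, adjusted p = 0.884 and 0.373). Its difference between arsenite-treated WT rescue and knockout cells also lost its call on centring (0.24, adjusted p = 0.128).

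In the RIP libraries the transcript of ELAVL1 was called higher in the FLAG-G3BP1 immunoprecipitate than in input, and those of the 4 decay factors lower. The deposited log2 ratio of immunoprecipitate over input was 0.75 for ELAVL1 (SE 0.12, adjusted p = 7.43e-10), -0.70 for ZFP36 (SE 0.29, adjusted p = 0.0273), -0.65 for ZFP36L1 (SE 0.16, adjusted p = 0.000134), -0.44 for ZFP36L2 (SE 0.17, adjusted p = 0.0195) and -0.24 for KHSRP (SE 0.09, adjusted p = 0.0146), all from the authors' deposited table with 3 libraries per group. Of all genes tested here, 24.7% were called higher and 31.4% lower, 56.1% together. ZFP36 had 41.2, 65.5 and 52.3 normalised reads in the immunoprecipitates (50, 71 and 41 reads) and 108.2, 73.2 and 79.4 in the inputs (117, 79 and 70 reads), and all 3 immunoprecipitates lay below all inputs. Relative to the median of 0.12 over genes whose base mean reached 100, the ratios were 0.63 for ELAVL1 and -0.82, -0.77, -0.56 and -0.36 for ZFP36, ZFP36L1, ZFP36L2 and KHSRP. ZFP36, with a base mean of 70.0, was not among those genes. Over all genes tested the median was -0.26, close to the -0.24 of KHSRP. Of genes whose base mean reached 100, 68.9% had a lower ratio than ELAVL1. The shares with a lower ratio than ZFP36, ZFP36L1, ZFP36L2 and KHSRP were 30.8%, 32.0%, 36.4% and 40.9%. By these shares none of the genes described here lay near either end of the RIP ratios. A ratio below 0 says that a transcript took a smaller share of the immunoprecipitate than of the input, and does not show that it was unbound.

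**Figure D4:**
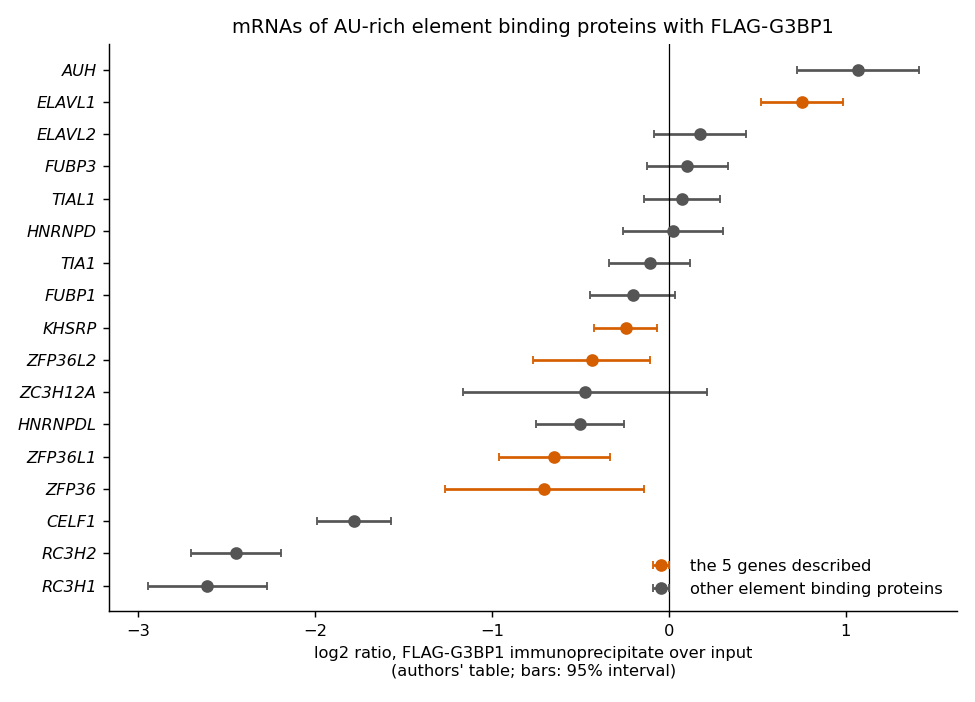
Deposited log2 ratio of FLAG-G3BP1 immunoprecipitate over input, with 95% intervals (3 libraries per group), for the 5 genes (orange) and 12 of the 13 tested other proteins of AU-rich or related decay elements (grey). ELAVL1, at 0.75, is second to AUH, and ZFP36, ZFP36L1, ZFP36L2 and KHSRP lie below 0.

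Among 15 other genes for proteins of AU-rich or related decay elements, 13 were tested in the RIP table, of which 1 was higher and 5 lower, with a median of -0.20. All genes tested had a median of -0.26 and genes whose base mean reached 100 one of 0.12, with 24.7% of all genes called higher and 31.4% lower. AUH was the higher one (1.07, SE 0.18), and RC3H1, which encodes Roquin-1, was the lowest (-2.61, SE 0.17, the authors' deposited table); both were chosen after their values were seen. In knockout against wild-type cells 5 of 15 were higher and 2 lower in the authors' deposited table, where 37.8% of all genes were called, with a median of 0.13 against 0.01 over all genes tested. TIAL1, a relative of TIA1, stood at 0.42, and the lowest were FUBP3 (-0.64), a relative of KHSRP, and CELF1 (-0.37). In WT rescue against knockout 8 of 14 were higher and 1 lower, where 42.1% of all genes were called and 23.0% were higher. The list's median of 0.33 stood against -0.03 over all genes tested and 0.18 over genes whose base mean reached 100. The share called among genes of like level was not worked out. ZC3H12A, the endonuclease Regnase-1, rose by 1.03 and FUBP3 by 0.79, and TIA1, a stress granule protein, fell by 1.16 in the authors' deposited table. With arsenite in knockout cells 2 of 13 rose, ZC3H12A by 1.71 (SE 0.16) and RC3H1 by 0.45, and 2 fell, FUBP1 by 0.30 and HNRNPD, which encodes AUF1, by 0.22, where 19.4% of all genes were called.

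CCR4-NOT, the decapping enzymes and the exosome carry out the decay. Of 25 genes of this machinery, 18 were higher and 1 lower in WT rescue than in knockout cells, and 20 were higher and 2 lower in NTF2-deletion rescue, where 23.0% and 22.8% of all genes were higher (42.1% and 41.5% called). Medians were 0.51 and 0.50, against -0.03 and -0.02 over all genes tested and 0.18 and 0.17 over genes whose base mean reached 100. The shares cover 20738 and 20911 genes at any level, whereas 10732 and 10808 genes reached a base mean of 100. Shares among genes of like level were not worked out, so these are not a like reference for the list. The exosome subunits EXOSC4 (2.96-fold) and EXOSC7 (2.54-fold) led in WT rescue, and DCP2, the decapping enzyme, fell by 0.69 (SE 0.09), in the authors' deposited table. In knockout against wild type 4 were higher and 6 lower, a share near the 37.8% of all genes called, among them CNOT9 (0.57) and DCP1A (0.47), and EXOSC4 (-0.68) and EXOSC2 (-0.58). With arsenite 3 of 25 rose and 0 fell in knockout cells, where 19.4% of all genes were called, with DCP1A at 0.43 and CNOT2 at 0.33. In WT rescue 1 of 25 rose, DCP1A by 0.24, and 1 fell, CNOT3 by 0.17, where 20.4% of all genes were called. In NTF2-deletion rescue 0 were called by DESeq2 in the authors' deposited table, where 8.57% of all genes were called, and 3 had an unadjusted p under 0.05.

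The p38-MK2 kinase pathway phosphorylates ZFP36, which is then held by 14-3-3 proteins, the products of the YWHA genes. Of 16 genes of this pathway, 13 were higher and 1 lower in each rescue than in knockout cells in the authors' deposited tables, where 23.0% and 22.8% of all genes were higher. Medians were 0.45 and 0.48, against -0.03 and -0.02 over all genes tested and 0.18 and 0.17 over genes whose base mean reached 100. Here too the shares of all genes are not a like reference, since shares among genes of like level were not worked out. MAP2K3, a kinase that activates p38, rose by 2.57 (SE 0.09) in WT rescue, and DUSP1, the phosphatase that switches p38 off, by 1.31 (SE 0.19). In knockout against wild type, with 37.8% of all genes called, 4 were higher and 7 lower, with MAP2K6 at 0.78 and MAPKAPK2, which encodes MK2, at 0.29, and YWHAH at -0.98 and PPP2CA at -0.74. With arsenite DUSP1 rose by 3.79 (SE 0.13) in knockout, 1.03 (SE 0.09) in WT rescue and 0.81 (SE 0.11) in NTF2-deletion rescue cells in the authors' deposited tables. The difference from knockout was -2.76 (adjusted p = 5.5e-71) and -2.98 (adjusted p = 1.6e-69), the same direction as for ZFP36. In the RIP libraries 10 of the 16 were higher and 2 lower, where 24.7% of all genes were higher and 31.4% lower, and their median of 0.76 stood against 0.12 over genes whose base mean reached 100.

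Transcripts known to carry AU-rich elements give the other side of the pathway. Of 28 such genes, 18 were tested for arsenite in knockout cells, where 9 rose and 2 fell and 19.4% of all genes were called, with a median of 0.36 against 0.00 over all genes tested. FOS rose by 6.13 (SE 0.13) and IER2 by 2.86 (SE 0.08) in knockout, by 2.41 (SE 0.11) and 0.99 (SE 0.04) in WT rescue and by 1.69 (SE 0.12) and 0.83 (SE 0.05) in NTF2-deletion rescue cells, in the authors' deposited tables. PLAUR, the urokinase receptor, fell by 0.51 and CCND1, which encodes cyclin D1, by 0.30 in knockout cells, and PLAU, which encodes urokinase, and IER3 fell in both rescues. In WT rescue 4 of 18 rose and 4 fell, and in NTF2-deletion rescue 5 of 17 rose and 4 fell, where 20.4% and 8.57% of all genes were called. The test of the difference called 9 of 18 lower in WT rescue than in knockout and 9 of 18 lower in NTF2-deletion rescue, and 0 higher in either, where 2.68% and 3.08% of all genes were called lower. Most of all genes were not called for arsenite, so those shares are not a like reference. Genes that were not put on this list also rose less in the rescues. MCL1, picked for its likeness to ZFP36, stood at 2.33 in knockout and at 1.06 and 0.86 in WT and NTF2-deletion rescue. Whether MCL1 or other unlisted genes carry AU-rich elements was not examined, so this is no contrast between transcripts with and without them. Whether the listed transcripts differed more than other genes raised by arsenite was not tested. Between the rescues 1 of 20 differed, FOS, named after its value was seen, where 0.328% of all genes differed.

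**Figure D5:**
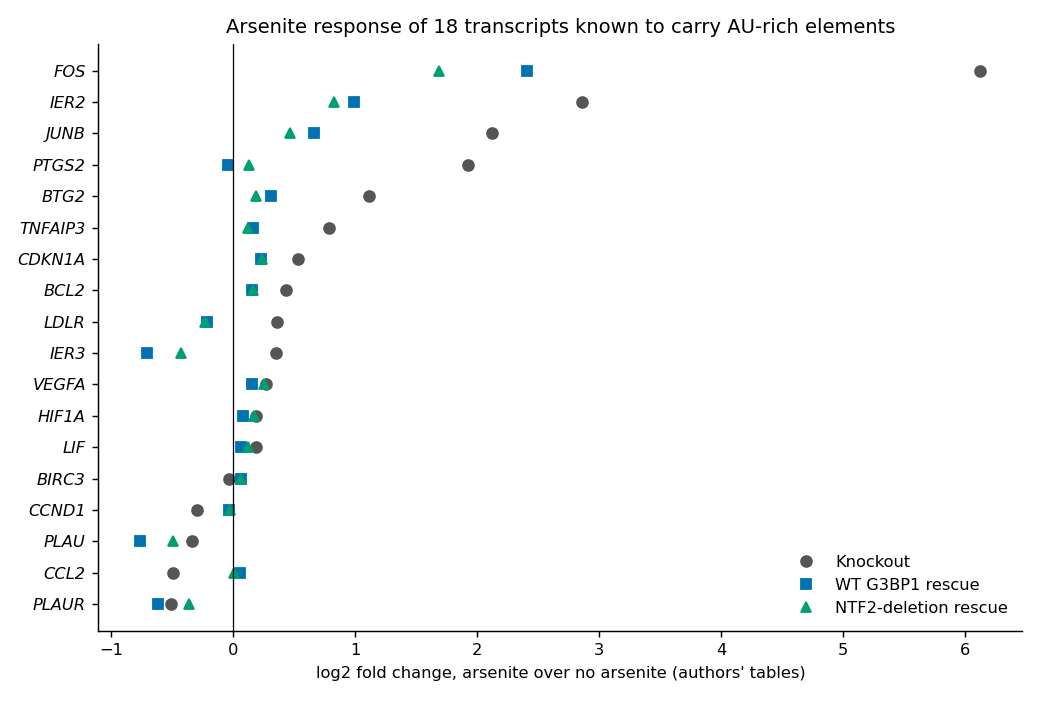
Deposited log2 fold change of arsenite over no arsenite in knockout (circles), WT rescue (squares) and NTF2-deletion rescue cells (triangles) for the 18 transcripts with AU-rich elements whose base mean reached 10 in the tables compared. FOS stands at 6.13, 2.41 and 1.69, and PTGS2, chosen after its values were seen, at 1.93 in knockout, -0.04 in WT rescue and 0.13 in NTF2-deletion rescue cells.

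Without arsenite, 16 of 23 of these transcripts were higher and 3 lower in WT rescue than in knockout cells in the authors' deposited table, where 42.1% of all genes were called and 23.0% were higher. Their median of 0.83 stood against -0.03 over all genes tested and 0.18 over genes whose base mean reached 100. The share called among genes of like level was not worked out. In knockout against wild type 3 of 23 were higher and 10 lower in the authors' deposited table, where 37.8% of all genes were called, with a median of -0.43 against 0.01. PLAU stood at -2.49 in knockout against wild type and at 3.48 in WT rescue against knockout, where PLAUR stood at 2.40, in the authors' deposited tables. BIRC3, an inhibitor of apoptosis, was 5.02 higher (SE 0.09) and TNFAIP3, which encodes A20, 1.83 higher in knockout than in wild-type cells, and IER3 fell by 1.22. BTG2 (-1.25) and IER3 (-0.46) were lower in WT rescue than in knockout cells in the authors' deposited table.

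Genes with the most similar pattern were found by the root mean square difference of log2 fold changes over the 10 U2OS tables, among 9817 genes for ZFP36 and 9816 for each of the others. These tables share libraries, and the measure is a description. ZFP36 was nearest to SLC30A1, a zinc exporter (0.32), MCL1 (0.38) and JMJD6 (0.40), where the median gene was at 1.37. SLC30A1 changed with arsenite by 2.80 in knockout, 1.29 in WT rescue and 1.30 in NTF2-deletion rescue cells in the authors' deposited tables. ZFP36L2 was nearest to MRPS2 (0.18), EML2 (0.19) and PDE2A (0.20), and ZFP36L1 to PARP3 (0.08), MYO19 (0.09) and DENND4B (0.09). For ELAVL1 the nearest were SMIM10L1, PPP2R1A and PPP1CA (0.03 to 0.04), and for KHSRP CCT3, EIF2S3 and ARMC10 (0.05). Within 0.20 lay 0 genes for ZFP36, 2 for ZFP36L2, 556 for ZFP36L1, 1020 for KHSRP and 1196 for ELAVL1.

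In the 11 tables, scaling Wald statistics to a robust spread of 1, which counts the many changed genes as spread, ended all calls of the 5 genes except those of ZFP36 for arsenite in the 3 backgrounds. Reads of KHSRP could be shared with its pseudogene KHSRPP1, which had a base mean of 3.55 or less in every table.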

How the data were processed

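The 11 files are the authors' own DESeq2 comparisons. Per the submitters' processing notes, reads were aligned with STAR (2.7.0f for RIP and the first U2OS experiment, listed as 1.5.3 for the second) and tested with DESeq2 2.11.40.6. The genome build, annotation and use of strand in counting are not given in the sources used here. The base mean that the authors deposited is a signal, the average of normalised reads over both groups, the deposited fold change is on the log2 scale (first over second group, shrunk), its deposited standard error and Wald statistic are scores, and the p-value and adjusted p-value are the authors'. RNA was poly-A selected and libraries were directional, per the labels' protocols. Called means an adjusted p under 0.05.

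The 5 genes and the gene lists were chosen with earlier results of these data known. Levels per library came from whole reads: the base mean of 1 read was found for each library from the most frequent base means, and whole reads that gave each base mean to its last digit were searched, which left exactly 1 set shared by all tables (in simulations for knockout cells with arsenite, the true set alone was found in 25 of 25). The search kept to sets whose libraries within a group lay within a fixed ratio and whose group ratio lay near the deposited fold change. Closeness of libraries within a group was thus partly imposed. The simulated libraries of a group lay close together, and the search was given their exact fold change, without shrinkage. The simulations could therefore not reveal a true set that lay outside these limits. In the first experiment a single table left up to 338 sets for ZFP36L1 and 60 for KHSRP, a case that the simulations did not cover. Recovered reads carry no replicate numbers and served for values, not for a count test. For 6 differences between tables, the difference was divided by the combined standard error, tested two-sided against a normal distribution and adjusted (Benjamini-Hochberg) over genes whose base mean reached 10 in both. On simulated data the test recovered 94% of 200 genes changed by 1 on the log2 scale for WT rescue minus knockout arsenite responses (15648 genes), 97% for NTF2-deletion rescue minus knockout (15442 genes) and 99.5% between the rescues (15865 genes). It recovered 78% for the rescues' levels without arsenite (16210 genes), and 79% and 81% for the levels with arsenite of WT and NTF2-deletion rescue minus knockout (16533 and 16248 genes). Of its calls 1.57% to 8.99% were false, the highest share in the last of these. The simulated noise was normal, with the deposited standard errors and independent between tables, just as the test assumes. These shares therefore do not check the standard errors themselves, the shared knockout libraries or the shrinkage of the fold changes. Named genes were the 5 members, G3BP1, the 2 highest and 2 lowest called genes of each list, with base means of 100 or more, in knockout against wild type, WT rescue against knockout and the 3 arsenite responses, and the 3 nearest genes of each member. Values said to be chosen after they were seen came in addition. The authors' tables include 4 summary lines of read counting each (unmapped, multimapping, ambiguous, no feature), which held 25.8% to 43.8% of the summed base mean and were left out here. Alternatives were centring, scaling of the Wald statistics, other filters, a minimum change, unshrunk ratios and leaving out each library. Some values of 2 genes on these lists are not reported here. Libraries that carry an RNA-editing enzyme or its controls were not analysed here. Python 3.11.15, pandas 2.3.3, numpy 2.4.6, scipy 1.17.1 and matplotlib 3.10.9 were used.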

Additional observations from a re-analysis of the deposited data

Results flagged for a closer look

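The response of ZFP36 to arsenite differed between backgrounds by a test of the difference itself: WT rescue minus knockout was -1.99 on the log2 scale, and NTF2-deletion rescue minus knockout was -2.52. With arsenite present, the levels over untreated knockout cells also differed between rescued and knockout cells for all 5 genes, in tests that 45.4% (WT rescue) and 43.4% (NTF2-deletion rescue) of all genes passed. Of the 5, ELAVL1 in WT rescue lost its call on centring (0.24, adjusted p = 0.128). For WT rescue minus knockout the differences were -1.20 for ZFP36, 0.74 for ZFP36L1, 1.85 for ZFP36L2, 0.47 for ELAVL1 and 0.94 for KHSRP. For NTF2-deletion rescue minus knockout they were -1.47 for ZFP36, 0.47 for ZFP36L1, 1.36 for ZFP36L2, 0.52 for ELAVL1 and 0.89 for KHSRP. Rescued cells had been transfected and knockout cells had not, so the transgene and the transfection cannot be told apart. Groups of 2 or 3 libraries were too small to look for a library apart from the rest.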

How the results depend on the processing

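No paired analysis was possible because the deposited tables carry no replicate numbers. The counts of genes called, out of 5, stayed within 1.5 times under centring, without a filter on base mean and, for the 11 tables, with base means of 100 or more. Scaling Wald statistics to a robust spread of 1 (it was 1.29 to 9.34) left 0 in the RIP table, in the 3 tables of the first experiment and in the 4 tables of rescues against knockout, and 1 for arsenite in knockout cells. Asking for a log2 change of at least 0.5 left 3 in RIP, 1 each for knockout over wild type and knockout over rescue, 0 for wild type over rescue and 1 for arsenite in knockout cells. With base means of 100 or more required, the difference of WT rescue and knockout arsenite responses called 2 genes. With the shared knockout error removed, a setting added after seeing the data, the difference between rescues called 1. No call changed sign under any alternative run. Leaving out 1 library at a time gave log2 ratios without a test. It moved 0 of 31 called ratios by over 1.5 times. Of 20 others it moved 11 by that or across 0. Among these was ZFP36 in NTF2-deletion rescue against knockout, from 0.61 to between 0.33 and 0.85. Of the RIP ratios only that of ZFP36 was covered. The search for reads kept libraries of a group within a fixed ratio, which limited these moves in advance. The 0 of 31 therefore does not show that called ratios are stable. The ZFP36 response ran from 3.35 to 3.67 in knockout, 1.33 to 1.65 in WT rescue and 0.96 to 1.46 in NTF2-deletion rescue cells. ZFP36 had 53 to 127 reads in untreated libraries of the second experiment, which limits its precision there.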
